A study of Mus musculus with 50 samples.

Results

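Ntm, Plpp3, Sfxn5, Gnao1, Myo6, S1pr1, Garem1 and Cst3 are 8 genes of 21938 protein-coding genes (GENCODE M21, mm10) whose surroundings were searched for CUT&RUN peaks of the glucocorticoid receptor (GR) and of the nuclear factor I protein NFIA. They were selected on the peak lists themselves, for high GR peaks in all astrocyte libraries from normally reared mice (NR) and none in those from dark-reared mice (DR). A peak belongs to a gene here when any of its bases lies within 50 kb of the transcription start or in the gene body. This is a matter of position only, since some windows reach other protein-coding genes. Those are Prkaa2 at Plpp3, Rab11fip5 at Sfxn5, Senp6 at Myo6, and 9230104L09Rik, Cst13 and Cst9 at Cst3. The NR and DR values below are therefore a description, and tests were run only in libraries that played no part in the choice.

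GR is a receptor that moves to the nucleus and binds DNA once a glucocorticoid hormone occupies it, and NFIA is a transcription factor that promotes astrocyte identity. CUT&RUN cuts DNA next to an antibody-bound protein, so that short fragments accumulate at its binding sites. The proteins encoded by the 8 genes do different work. Neurotrimin (Ntm) is a cell adhesion protein of the IgLON family. Plpp3 removes phosphate from extracellular lysophospholipids and sphingosine 1-phosphate, and S1pr1 is a receptor for the latter. Gnao1 encodes the G-protein subunit alpha-o. Myo6 encodes myosin VI, the motor that walks towards the minus end of actin. Sfxn5 encodes a mitochondrial sideroflexin, Garem1 an adaptor of the EGF receptor pathway, and Cst3 cystatin C, a secreted inhibitor of cysteine proteases.

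Peak lists of 39 libraries were analysed, 27 for GR and 12 for NFIA, in 15 groups of 2 or 3. The in vivo libraries came from 175000 sorted GFP+ nuclei of primary visual cortex (V1) at postnatal day 14, each from a pool of mice. Astrocytes were labelled with an AAV whose GfaABC1D promoter drove GFP together with ΔCre, an inactive recombinase, in wild-type NR and DR mice (3 GR libraries each) and in GRfl/fl mice (GR-con, 2 libraries), or with active Cre in GRfl/fl mice (GR-KO, 2 libraries), both normally reared. A further 3 libraries were of NFIA in NR astrocytes. Their labels say wild type, whereas the study's methods mention astrocyte NFIA only for GRfl/fl mice, so their genotype is uncertain. The animals of every astrocyte group had thus received the virus. Oligodendrocyte, inhibitory neuron (InN) and excitatory neuron (ExN) nuclei came from normally reared Olig2-Cre, Slc32a1-Cre and Slc17a7-Cre mice that carried a Cre-dependent Sun1-GFP, with 3 GR and 3 NFIA libraries each. The Sun1-GFP allele is labelled fl/fl but given as heterozygous, fl/+, in the study's methods. Olig2-Cre is driven by a gene of the oligodendrocyte lineage. Mouse 3T3 fibroblasts, at 50000 or 250000 nuclei, had received 200 nM dexamethasone (DEX) or vehicle for 2 h, with 2 GR libraries per group. Peak lists hold no expression, so neither the deletion of the receptor nor the identity of the sorted nuclei could be checked by transcript. The 5 astrocyte marker genes together held on average 27.7 GR peaks per NR library and 43.7 NFIA peaks per astrocyte library, against 0 in each of the oligodendrocyte groups. They were uneven, with 14 of the NR peaks at Aldh1l1 and 0.667 at Gja1. The 5 markers of the oligodendrocyte lineage held 6.67 peaks in NR and 10.3 in astrocyte NFIA libraries, most of them at Olig2, and none in the oligodendrocyte lists. Excitatory neuron markers held 4 in NR and 4.67 in astrocyte NFIA libraries, more than the 3 in ExN GR and 1.67 in ExN NFIA libraries. Inhibitory neuron markers held 1 in NR and 3 in astrocyte NFIA, against 1.67 in InN GR and 3.67 in InN NFIA libraries. Markers thus did not separate the groups throughout.

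The lists differ greatly in length, and the numbers at the 8 genes move with it. NR lists held 2262 to 21539 peaks, DR lists 28 to 293, GR-con lists 6792 and 7761, GR-KO lists 413 and 1846, astrocyte NFIA lists 22373 to 27143, and the lists of the other cell types 1 to 4563. The 3T3 lists held 189 to 5010. No 2 lists were identical. Read depth is not given in the peak lists, and the part of list length in the results below was not tested beyond the alternatives named beside them. A fold enrichment is compared only within its own list, as a percentile (100 being the highest fold).

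**Figure D1:**
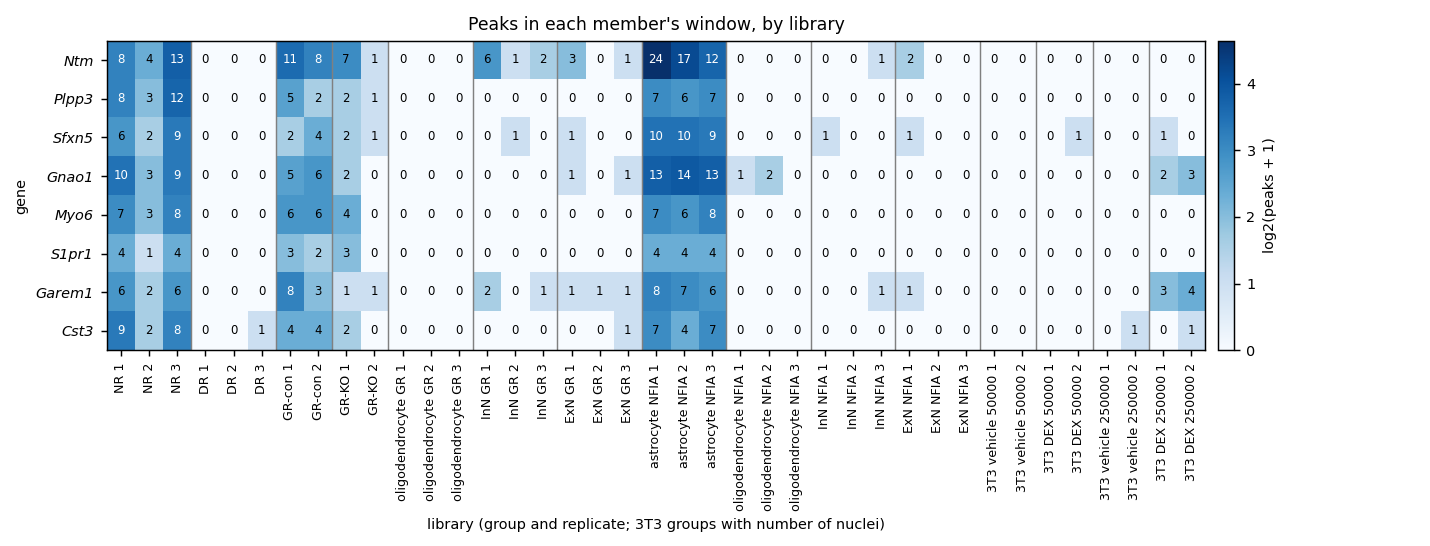
Number of peaks in the window of each gene (rows) in each of 39 libraries (columns, named by group and replicate), with colour giving log2(peaks + 1). All 8 genes have peaks in every NR, GR-con and astrocyte NFIA library, and the DR libraries hold 1 peak in all, at Cst3.

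An NR-only site is a region of merged NR peaks that was called in all 3 NR libraries and in no DR library. There were 1669 of them, and 18 lay in the 8 windows: 4 at Ntm, 3 each at Plpp3 and Myo6, 2 each at Sfxn5, Gnao1 and Garem1, and 1 each at S1pr1 and Cst3. For each gene the best site was the one whose lowest percentile over the 3 NR lists was highest. The reference sequence (GRCm38.p6, plus strand, 5′ to 3′) of the best site is shown for 6 genes, from 50 bp before to 50 bp after the median NR summit or, for Myo6, over the whole region. For Gnao1 that summit rests on NR replicates 1 and 3. Capitals mark matches on either strand to TTGGCA (the NFI half-site), ACAATGG (a SOX site) or TAATTA (a homeobox site).
Ntm, chr9:29949171-29949271: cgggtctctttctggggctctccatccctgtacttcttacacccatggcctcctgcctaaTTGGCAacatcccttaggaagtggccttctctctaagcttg
Plpp3, chr4:105181238-105181338: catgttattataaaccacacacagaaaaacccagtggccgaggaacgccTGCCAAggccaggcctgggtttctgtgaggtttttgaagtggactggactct
Sfxn5, chr6:85320525-85320625: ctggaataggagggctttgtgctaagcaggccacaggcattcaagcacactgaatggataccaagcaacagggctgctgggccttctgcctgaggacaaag
Gnao1, chr8:93918184-93918284: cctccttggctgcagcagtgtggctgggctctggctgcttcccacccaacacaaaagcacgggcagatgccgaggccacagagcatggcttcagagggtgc
Myo6, chr9:80178754-80179018: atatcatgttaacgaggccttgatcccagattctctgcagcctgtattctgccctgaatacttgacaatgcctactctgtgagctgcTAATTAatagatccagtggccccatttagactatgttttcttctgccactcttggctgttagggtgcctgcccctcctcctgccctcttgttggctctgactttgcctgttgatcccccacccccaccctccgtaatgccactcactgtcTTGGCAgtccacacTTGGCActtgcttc
Cst3, chr2:148861762-148861862: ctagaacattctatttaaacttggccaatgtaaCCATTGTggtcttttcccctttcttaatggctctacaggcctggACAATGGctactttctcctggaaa

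The windows held few of the 8 patterns searched. In the 50 bp to either side of the summit, TTGGCA stood at 2 of the 8 best sites, Ntm and Plpp3, and at 15.3% of all 1669 NR-only sites. The core of the GR response element, ACANNNTGT, stood at 0 of 8 and at 4.61% of all sites. The AP-1 pattern TGANTCA was at 0 of 8 and at 2.76% of all, and the E-box CAGCTG at 0 of 8 and at 7.91%. At 1 site each stood TAATTA at Myo6 (3.71% of all sites) and ACAATGG at Cst3 (2.22%). The CRE pattern TGACGTCA (0.539% of all) and the full NFI palindrome of TTGGC and GCCAA (0.0599%) were found at none of the 8. Over the whole merged regions, whose widths differ, 5 of the 8 sites held TTGGCA against 35.7% of all sites, Gnao1, Myo6 and Cst3 being the additions, and the Cst3 region also held ACANNNTGT (10.4% of all). In the same regions TAATTA stood at 3 of 8, Ntm, Plpp3 and Myo6 (9.41% of all), and TGANTCA at 1 of 8, Ntm (9.11%). Letters missing from a window say nothing of whether the factor was there.

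Most best sites lay inside the gene and away from its start. At Ntm (window chr9:28994750-30013141) the site was 13.9 kb into the gene, in an intron, at Plpp3 (chr4:105107347-105232764) 23.9 kb, at Gnao1 (chr8:93759966-93969388) 108 kb and at Myo6 (chr9:80115031-80311729) 13.9 kb, all intronic. The Sfxn5 site (window chr6:85213049-85383422) lay 12.8 kb into the gene, within 500 bp of an internal transcript start. At S1pr1 (window chr3:115665072-115765072) the site was at the promoter, with its summit 139 bp after the start and also within 500 bp of a start of Gm9889. The Garem1 site (window chr18:21127201-21350138) was also at the promoter, with its summit at −374 bp from the start. At Cst3 (window chr2:148825692-148925692) it lay 13.9 kb beyond the start, outside the gene, in an intron of the neighbouring 9230104L09Rik. A best site was not always the strongest peak of its gene in a list. At Myo6 in NR replicate 3 the strongest peak was 8 bp after the start (fold 31.5, against 24.3 at the best site). At Gnao1 in NR replicate 1 it was 681 bp after the start (fold 22.6, against 19.6). Of all NR-only sites 33.2% were at promoters, 40.6% in introns, 23.5% intergenic and 2.7% in exons.

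**Figure D2:**
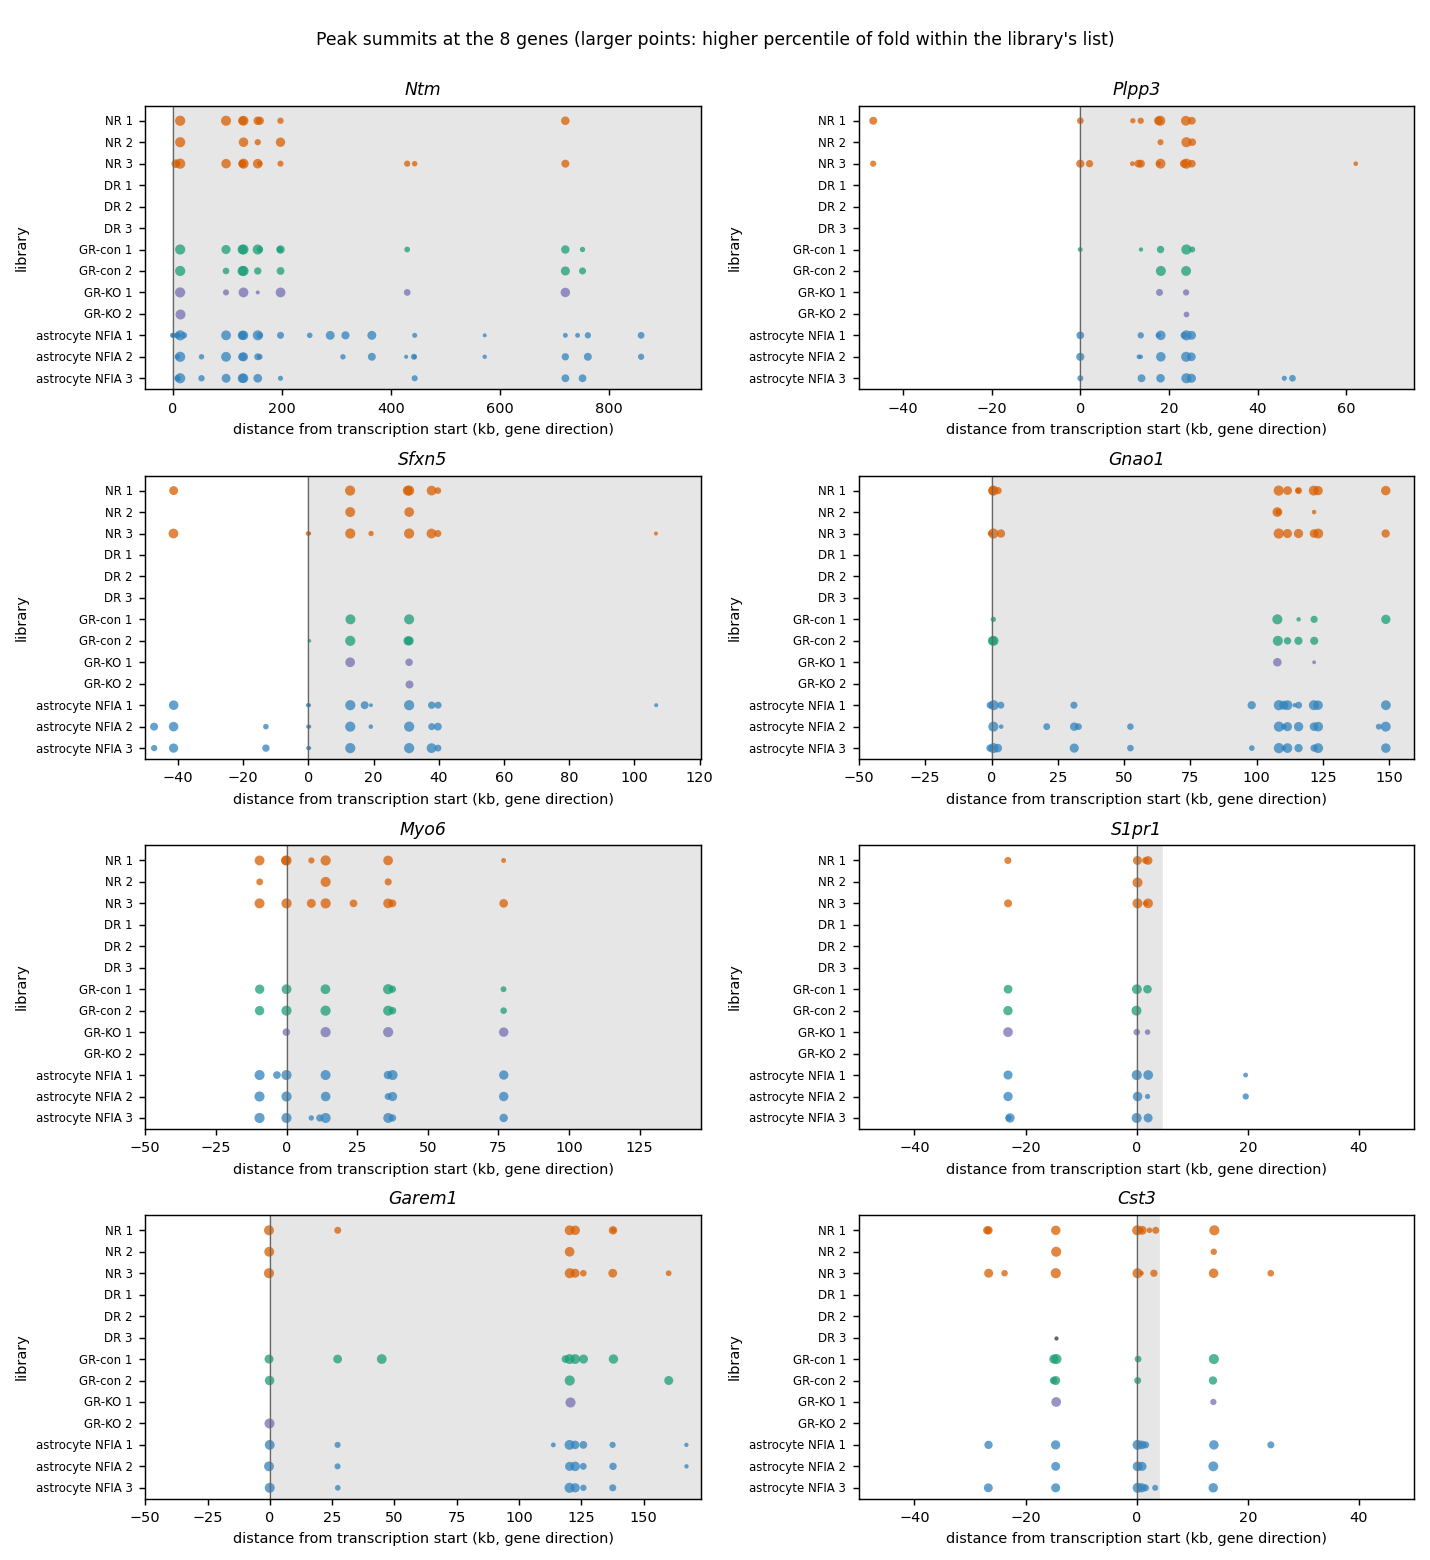
Peak summits at the 8 genes by distance from the transcription start in kb (positive into the gene; grey, gene body), 1 row per astrocyte library, with point size rising with the percentile of the peak's fold in its list. The same positions recur in NR, GR-con and NFIA rows, GR-KO 1 keeps some of them at every gene, and the single DR summit is at Cst3, at −14565 bp.

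The 3 NR libraries held 58, 20 and 69 peaks at the 8 genes, and the DR libraries 0, 0 and 1. Replicate 2, with the shortest NR list, was the lowest at every gene. In the order of replicates, Ntm had 8, 4 and 13 peaks, Plpp3 8, 3 and 12, Sfxn5 6, 2 and 9, and Gnao1 10, 3 and 9. Myo6 had 7, 3 and 8, S1pr1 4, 1 and 4, Garem1 6, 2 and 6, and Cst3 9, 2 and 8. The NR and DR counts of all 8 genes did not overlap, which the choice of genes fixes; the same was true of 11.9% of all protein-coding genes and of 99.1% of the 2412 genes with an NR-only site in the window. Per 100 kb of window, which allows genes to be compared, Cst3 (6.33) and Plpp3 (6.11) had the highest mean NR numbers and Ntm, with a window of 1018.4 kb, the lowest (0.818), while the ranges of neighbouring genes overlapped.

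The label of strongest loci held for most of the 8 and not for all. The best sites of Ntm and Myo6 ranked 1 and 2 of 1669 by their lowest NR percentile (98.9 and 96.8). Sfxn5 ranked 18, Garem1 29, Plpp3 36 and Gnao1 54. S1pr1 ranked 267, with percentiles of 73.0, 95.2 and 95.5 in the 3 NR lists. Cst3 ranked 993, with percentiles of 98.0, 30.9 and 84.9. The strongest GR peak of Cst3 lay elsewhere in every NR list. In NR replicate 1 it was 103 bp after the start (fold 16.2, against 16.0 at the best site). In NR replicates 2 and 3 it lay upstream, at −14484 and −14560 bp from the start (percentiles 96.5 and 98.4). That upstream position also held the strongest Cst3 peak in both GR-con lists and in that of GR-KO replicate 1. In DR replicate 3 it was called as well, with a fold of 4.47 at percentile 5.46 of a list of 293. Cst3 is thus not without a peak in darkness.

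GR-con astrocytes, which keep the receptor and were not used in the choice, had peaks at all 8 genes, and all 8 best sites were called in both libraries. The 2 GR-con libraries held 44 and 35 peaks at the 8 genes (39.5 ± 6.36, SD, n = 2). Of these 79 peaks 74 overlapped an NR peak. Overlaps of peaks, here and below, were counted in the 8 windows only, without a share over whole lists beside them. Per 100 kb of window the mean GR-con number was 4.00 at Cst3, 3.05 at Myo6, 2.79 at Plpp3, 2.63 at Gnao1, 2.50 at S1pr1, 2.47 at Garem1, 1.76 at Sfxn5 and 0.933 at Ntm. The ranges of Plpp3 (1.59 to 3.99) and Garem1 (1.35 to 3.59) took in the means of several others. The order between Cst3 and Ntm is therefore not read further. Both libraries called 76.9% of all NR-only sites, and 96.1% of the sites that ranked 100 or better, so a count of 8 of 8 is close to that of other high sites. At Ntm, the IgLON adhesion gene, the best site ranked 6 of 7761 peaks in GR-con replicate 1 and 4 of 6792 in replicate 2, with percentiles of 99.9 in both. Sfxn5 (94.0 and 99.6), Gnao1 (96.9 and 96.5), Plpp3 (99.1 and 93.0) and S1pr1 (92.2 and 95.1) followed, with values that overlap one another. Myo6 had percentiles of 89.5 and 99.7, Cst3 97.6 and 62.0, and Garem1 73.9 and 84.5. Over the 8 sites the median percentile was 95.5 and 95.8, and over all NR-only sites called in the same lists 70.4 and 66.7. The best sites had been chosen for high NR percentiles, and no median was taken over the sites ranked 100 or better. This gap is therefore not read as particular to the 8 genes.

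Fewer peaks were called at the 8 genes in GR-KO astrocytes, although none of the 8 best sites was free of a call there. GR-KO replicate 1 held 23 peaks, at all 8 genes, and replicate 2 held 4, at Ntm, Plpp3, Sfxn5 and Garem1. All 27 overlapped an NR peak. The GR-con counts exceeded both GR-KO counts at 5 of 8 genes: Ntm with 11 and 8 against 7 and 1, Gnao1 with 5 and 6 against 2 and 0, Myo6 with 6 and 6 against 4 and 0, Garem1 with 8 and 3 against 1 and 1, and Cst3 with 4 and 4 against 2 and 0. The counts overlapped at Plpp3 (5 and 2 against 2 and 1), Sfxn5 (2 and 4 against 2 and 1) and S1pr1 (3 and 2 against 3 and 0). This separation was found in 21.5% of all protein-coding genes and in 67.9% of those with an NR-only site, so 5 of 8 is near the share of genes like them. With 2 libraries against 2 the smallest two-sided exact permutation p is 0.333, and no gene could pass. Without GR-KO replicate 1 the count was 8 of 8 (24.6% of all protein-coding genes), and with each list limited to its 2000 best peaks it was 1 of 8 (3.25% of all). Within 50 kb of the start alone it was 3 of 8 (20.0% of all).

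At the best sites the GR-KO calls differed between the 2 libraries. Replicate 1 called 7 of 8 (39% of all NR-only sites, 78.6% of those ranked 100 or better) and replicate 2 called 3 of 8, Ntm, Plpp3 and Garem1 (7.01% of all, 19.4% of the highest). A site called in neither was found for 0 of 8, against 58.9% of all NR-only sites and 19.4% of the highest; without replicate 1 only 3 of the 8 were called. The Ntm site was called in both, with folds of 16.5 and 8.63 and ranks of 5 of 1846 and 19 of 413. Myo6 in replicate 1 ranked 4, with a fold of 17.0 and a percentile of 99.8, and was not called in replicate 2. Garem1 was the reverse, with no call in replicate 1 and percentile 96.0 in replicate 2. Plpp3 was low in both, at percentiles of 29.1 and 21.8. Sfxn5 stood at 89.3, Gnao1 at 65.6, S1pr1 at 34.4 and Cst3 at 29.1 in replicate 1 alone. The percentiles of the retained sites ran over nearly the whole list and did not fall together. Per 1000 peaks of a list, the 8 genes held 12.5 and 9.69 in GR-KO, between 3.20 and 8.84 in NR, and 5.67 and 5.15 in the GR-con lists. Within NR the highest value belonged to the shortest list (2262 peaks) and the lowest to the longest (21539). In ExN GR replicate 2 a single peak in a list of 61 gave 16.4. No such value was counted for other genes, and the part of list length was not tested.

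The 8 windows held 10 further NR-only sites, none at S1pr1 or Cst3. Of all 18 sites, the 8 best ones included, 17 were called in both GR-con libraries, beside 76.9% of all NR-only sites. GR-KO replicate 1 called 15 (39% of all) and GR-KO replicate 2 called 4 (7.01% of all). All 3 astrocyte NFIA libraries called 17 (95.3% of all). The intronic Garem1 site, 120.3 kb into the gene, had percentiles of 92.5, 89.2 and 96.5 in NR, 93.8 and 98.8 in GR-con and 97.8 in GR-KO replicate 1. It was thus called in the GR-KO library that lacked the promoter peak of the same gene. The Sfxn5 site 30.92 kb into the gene (98.2, 89.7 and 99.7 in NR) was called in both GR-KO libraries, at 47.3 and 55.4. The Myo6 site 35.97 kb into the gene stood higher in both GR-con lists (99.4 and 96.6) and in that of GR-KO replicate 1 (99.1) than in any NR list (88.5, 41.3 and 89.8). At Ntm the site 130.04 kb into the gene was at 92.2, 85.5 and 97.2 in NR, at 96.1 and 99.3 in GR-con and at 91.5 in GR-KO replicate 1. Plpp3 held 2 more, at 18.1 and 25.17 kb, of which the latter was called in 1 GR-con and no GR-KO library. The Myo6 site at −9544 bp was also called in no GR-KO library.

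**Figure D3:**
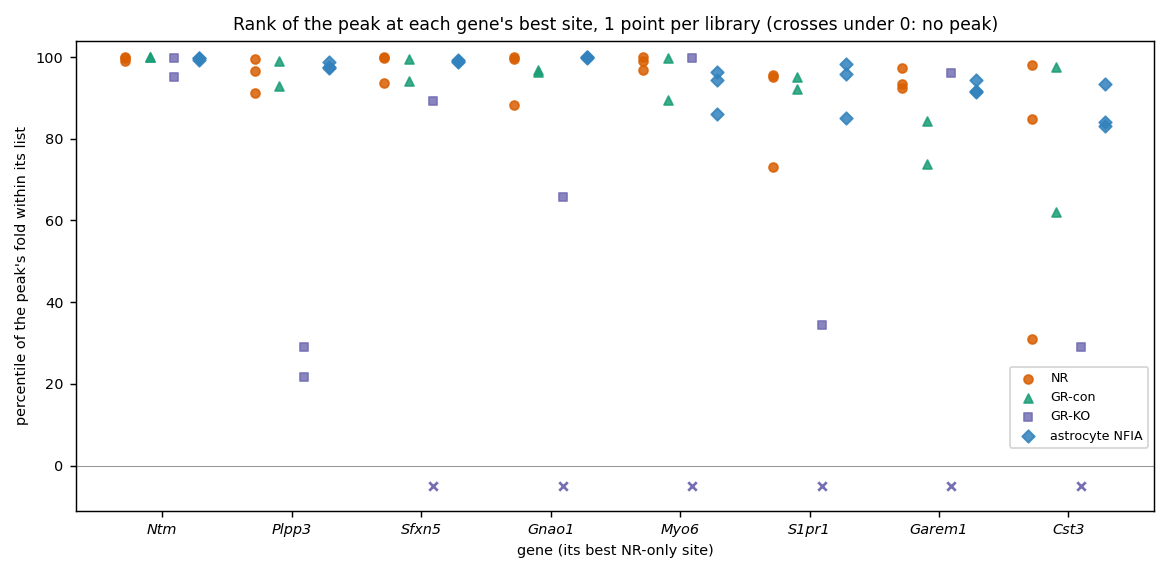
Percentile of the peak's fold within its own list at the best NR-only site of each gene, 1 point per library and 1 colour and marker per group; crosses below 0 stand for libraries with no peak there. GR-con points lie between 62.0 and 99.9 and NFIA points between 83.1 and 100, while GR-KO points run from 21.8 to 99.8 and 6 genes have 1 GR-KO library without a peak.

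NFIA was found at all 8 genes in astrocytes, and at 8 of 8 of the best sites in all 3 NFIA libraries. This call was shared with 95.3% of all NR-only sites. The 3 libraries held 80, 68 and 66 peaks in the 8 windows (71.3 ± 7.57, SD, n = 3), and the 9 NFIA libraries of the other cell types 0 to 4. Ntm had 24, 17 and 12 NFIA peaks, Plpp3 7, 6 and 7, Sfxn5 10, 10 and 9, and Gnao1 13, 14 and 13. Myo6 had 7, 6 and 8, S1pr1 4 in each, Garem1 8, 7 and 6, and Cst3 7, 4 and 7. In the other cell types no NFIA peak was called at Plpp3, Myo6, S1pr1 or Cst3. Those 9 lists held only 1 to 4173 peaks, lengths at which absence of a peak is weak information. The share of all genes without such a peak was not counted. The difference in mean log2(peaks + 1) ranged from 2.32 at S1pr1 to 3.55 at Gnao1 and 3.88 at Ntm. Per 100 kb of window the mean NFIA numbers were 6.37 at Gnao1, 5.67 at Sfxn5 and 5.32 at Plpp3, with Cst3 between the former pair and neighbouring ranges overlapping, then 4.00 at S1pr1, 3.56 at Myo6 and 3.14 at Garem1. Ntm, at 1.73, lay below the range of every other gene. Each of the 8 was at the smallest p that 220 arrangements allow, 0.00909 (two-sided exact permutation test, 3 against 9 libraries, adjusted p = 0.0175 over all protein-coding genes). So were many others: 57.1% of all protein-coding genes passed with astrocytes higher, and 94.2% of those with an NR-only site. When every list was limited to its 2000 best peaks 0 of 8 passed, as did 0 of all 21938 genes. The adjustment needs many genes at the smallest p, which lists this short did not give. That setting therefore does not tell the 8 from other genes. Their differences in it stayed positive, from 0.973 at Ntm to 1.86 at Cst3.

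Of the 147 NR peaks at the 8 genes 130 overlapped an astrocyte NFIA peak, and of the 79 GR-con peaks 74 did. Since 95.3% of all NR-only sites were called in all 3 astrocyte NFIA libraries, these counts are not read as particular to the 8 genes. The median NFIA summit lay 3 bp from the median NR summit at the Myo6 site, 14 bp at Plpp3 and 16 bp at Ntm and Sfxn5. The distance was 70 bp at Gnao1, 78 bp at Cst3, 117 bp at S1pr1 and 304 bp at Garem1. Several of these medians hide spread between libraries. At Garem1 the 3 NFIA summits lay at −304, −4 and −318 bp from the median NR summit (negative towards lower coordinates), at S1pr1 at 117, −24 and 133 bp and at Cst3 at −26, 78 and 93 bp. Those of Plpp3 (−1, −57 and −14 bp) and Myo6 (−24, 6 and −3 bp) also moved, and those of Ntm (13, 16 and 20 bp) and Sfxn5 (−21, −9 and −16 bp) less. At Gnao1 it was the GR summit that differed. NR replicates 1 and 3 placed it at 0 and 6 bp, but NR replicate 2 at −515 bp, the GR-con lists at −509 and −334 bp and GR-KO replicate 1 at −512 bp, whereas NFIA stood at 70, 81 and 70 bp. Over the 1668 NR-only sites with an NFIA peak the median was 20 bp and 77.5% were within 50 bp. At the Gnao1 site the NFIA peak ranked 13, 13 and 40 in the 3 lists and at Ntm 69, 193 and 43, whereas Myo6, ranked 2 among NR-only sites, was at NFIA ranks 1510, 3517 and 835. The order of the genes by NFIA was not their order by GR.

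GR peaks at the 8 genes were few in the other cell types of the cortex. Oligodendrocyte libraries held none, InN libraries 8, 2 and 3, and ExN libraries 6, 1 and 4. At each of the 8 genes both GR-con counts exceeded all 9 counts of the other cell types, which was so for 12.4% of all protein-coding genes and 46.6% of those with an NR-only site. The two-sided exact permutation p was 0.0364 at each gene, the smallest that 55 arrangements allow, and its adjusted value 0.292, so none passed. Counting peaks within 50 kb of the start alone, 5 of 8 genes separated (11.4% of all genes). Ntm had 6, 1 and 2 InN peaks and 3, 0 and 1 ExN peaks. Of the 13 InN and 11 ExN peaks at the 8 genes 3 and 5 overlapped an NR peak. The InN lists held 916 to 2446 peaks and the oligodendrocyte GR lists 4 to 110, lengths at which absence of a peak is weak information.

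Garem1 was the exception among the best sites. Its promoter was called in 2 of 3 InN and in 3 of 3 ExN GR libraries, in 1 InN and 1 ExN NFIA library, and in both 3T3 DEX libraries of 250000 nuclei. The percentiles were 4.14 to 52.6 in neurons. No other best site was called in a neuronal GR library. Calls in any InN GR library were made at 13.7% of all NR-only sites and in any ExN GR library at 17.4%. Gnao1 was the only best site with NFIA in oligodendrocytes, in replicates 1 and 2 at percentiles of 36.6 and 65.8. An NFIA peak in any library of the other cell types stood at 2 of 8 best sites and at 21.7% of all.

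In 3T3 cells DEX brought few peaks to the 8 genes. At 250000 nuclei the DEX libraries held 6 and 8 peaks and the vehicle libraries 0 and 1. At 50000 nuclei they held 0 and 1 against 0 and 0. No gene had DEX counts above vehicle at both numbers of nuclei, as 1.82% of all protein-coding genes and 3.65% of those with an NR-only site had; the smallest two-sided exact permutation p over 36 arrangements is 0.0556, so none of the genes could pass. At 250000 nuclei alone, Gnao1 (2 and 3 against 0 and 0) and Garem1 (3 and 4 against 0 and 0) separated, 2 of 8 beside 10.3% of all genes and 18% of those with an NR-only site. Of the 14 peaks, 2 overlapped an NR peak, both at the Garem1 promoter. A 3T3 DEX peak stood at 1 of 8 best sites and at 8.75% of all NR-only sites.

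**Figure D4:**
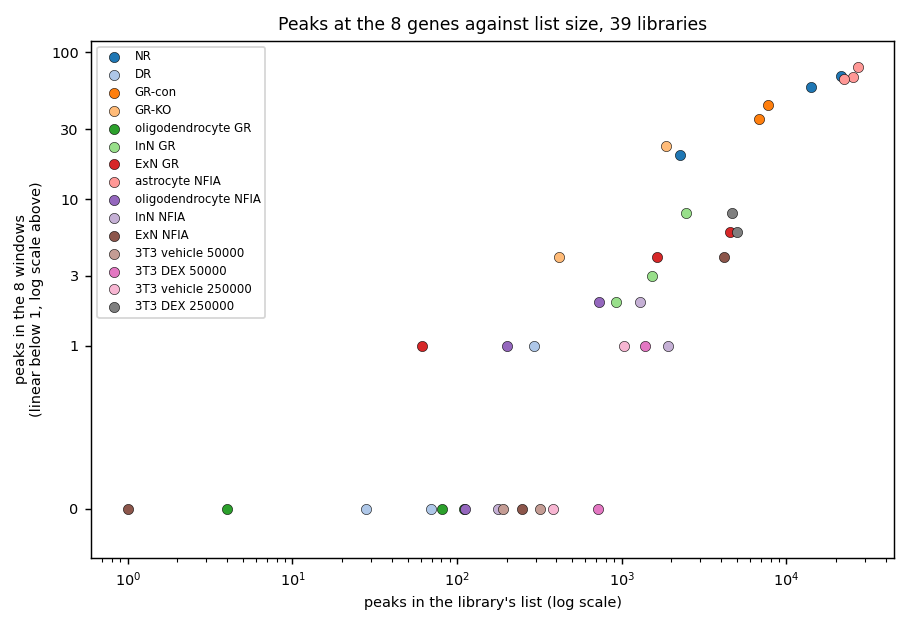
Peaks in the 8 windows (vertical, linear below 1 and logarithmic above) against the number of peaks in the list (horizontal, logarithmic) for 39 libraries, coloured by group. The in vivo libraries run from 0 in the list of 1 peak to 80 in the list of 27143, and the 3T3 lists reach weaker q values and are not to be read against them; GR-KO replicate 1 holds 23 of 1846 and ExN GR replicate 1 holds 6 of 4563.

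Relatives and pathway partners of the 8 genes were listed by family and counted in the same way. Their counts were not divided by window length, so they do not compare genes of different length. Of 53 such genes 40 passed the NFIA test, 13 had GR-con counts above GR-KO and 8 had GR-con counts above all other cell types. The latter counts are near the shares of all protein-coding genes, 21.5% and 12.4%. A median of 2.33 NFIA peaks and 0.5 GR-con peaks lay in their windows, against 1.67 and 0 over all protein-coding genes. Among IgLON genes, Lsamp, another adhesion protein, had 16 and 8 GR-con peaks, 6 and 0 in GR-KO and 15, 11 and 7 NFIA peaks. The other 3 (Opcml, Negr1 and Iglon5) had 0 to 2 GR-con peaks each, and of these Negr1 separated GR-con (2 and 1) from GR-KO (0 and 0). Among 10 further G-protein alpha subunits 7 passed the NFIA test. Gna13 had 5 and 5 GR-con peaks against 1 and 0 in GR-KO, Gnai2 2 and 6 against 1 and 0, and Gnai1 and Gnal 0.

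Of 13 genes of lysophospholipid and sphingosine 1-phosphate signalling, 8 passed the NFIA test and 2 separated GR-con from GR-KO. Those were Sphk2, a kinase that makes sphingosine 1-phosphate (2 and 3 against 0 and 0), and S1pr5 (2 and 2 against 0 and 0; NFIA adjusted p = 0.0603, exact permutation test). The lysophospholipase D gene Enpp2 had no NFIA peak. Among 10 unconventional myosins, 8 passed the NFIA test and 1, Myo1c, separated GR-con (1 and 1) from GR-KO (0 and 0). The counts of Myo10, a filopodial motor, overlapped, with 5 and 4 GR-con peaks against 4 and 1 in GR-KO. Of 4 further sideroflexins 3 passed the NFIA test, and Sfxn2 alone separated GR-con (2 and 1) from GR-KO (0 and 0). Of 6 genes around cystatin C, 4 passed the NFIA test and 0 separated GR-con from GR-KO. All 6 partners of Garem1 passed the NFIA test, and Grb2, Sos1 and Shc1 separated GR-con from GR-KO. Of all genes, 57.1% passed the NFIA test and 21.5% separated GR-con from GR-KO, and with 4 to 13 genes a list these counts are read no further.

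The genes whose best-peak percentile moved most like that of a member over the 39 libraries were Plau (r = 0.999) and Fam184b (0.999) for Myo6, Fam184b (0.996) and Myo6 itself (0.995) for S1pr1, and Atxn7 (0.993) and Cspg5 (0.992) for Plpp3. That given for Gnao1 was Fnbp1 (0.933), and those of Ntm were Agtrap (0.931) and Clcn6 (0.928). Csrp1 and Phlda3 (0.930 each) came with Cst3, Xylt1 (0.912) and Klf15 (0.911) with Sfxn5, and Pdhb (0.899) and Myo10 (0.897) with Garem1. These Pearson coefficients, with 0 entered where no peak was called, describe libraries that share list length as well as condition, the 3T3 lists with their weaker q values included.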

How the data were processed

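CUT&RUN peak lists were used for 39 of 50 samples, and the other 11 (IgG or nuclei without GFP) were not used here. The submitters' processing notes and the study's methods name cutadapt, Bowtie2 with mm10, Picard, SAMtools, deepTools and MACS2, the last run per library against IgG. For every peak the authors deposited a fold enrichment (ratio) and the −log10 of its p and q. Deposited 3T3 lists reach weaker (higher) q values than the in vivo lists, so peak numbers were not tested between them.

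Peaks were counted per gene within 50 kb of the start or in the gene body (GENCODE M21), without a filter, and compared as log2(peaks + 1) by two-sided exact permutation of libraries, with Benjamini-Hochberg adjustment over all genes and a threshold of 0.05. In 3T3 cells labels were permuted within a number of nuclei. Groups came from the labels. For 3T3 no separate cultures are described, so p-values there measure only the spread between samples, which may be technical. The members and lists were chosen with earlier results of these data known. Genes named are the 8 members, listed relatives (examples picked after their values were seen) and, per member, the 2 most alike genes whose windows do not overlap its own, of which 1 is not reported here. The subset of sites ranked 100 or better and the count at 250000 nuclei alone were added after seeing the data. Promoters were within 500 bp of any transcript start. Alternatives were other windows, a q of 1e-04, the 2000 best peaks, summits, left-out libraries and the replicate block. Python 3.11.15 with numpy 2.4.6 and pandas 2.3.3 was used, and the tests were checked on simulated data.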

Additional observations from a re-analysis of the deposited data

How the results depend on the processing

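Numbers are genes or best sites of 8. GR-con above GR-KO, 5 of 8, was 3 within 50 kb of the start and 1 with the 2000 best peaks per library, and 5 to 8 when 1 library was left out (8 without GR-KO replicate 1). NFIA, 8 of 8 adjusted over all genes, was 0 with the 2000 best peaks, where no gene of any kind passed. It was 0 to 8 when 1 library was left out. Without any 1 of the 3 astrocyte libraries it was 0, since 2 against 9 gives too few arrangements to pass. GR-con above the other cell types, 8 of 8, was 5 within 50 kb of the start. DEX, 0 of 8, was 2 at 250000 nuclei alone. Sites called in at least 1 GR-KO library, 8, ranged from 3 to 8 when 1 library was left out, and sites with TTGGCA, 2, were 5 over whole regions. The other 112 recomputed counts were within 1.5 times the reported one, and no direction reversed; 45 recomputed single-gene calls were lost with their direction kept. Over all genes, NR above DR was counted in 2609, and in 11529 without NR replicate 2.

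With the replicate number as a block, 8 genes still separated GR-con from the other cell types, 6 of 8 separated GR-con from GR-KO, 0 separated DEX from vehicle, and 0 passed for NFIA, where the smallest exact permutation p over 64 arrangements, 0.0312, adjusted to 0.0568. Same-numbered samples did not deviate together in every pair. Correlations ran from −0.212 to 0.292 over 18 NFIA pairs and from −0.13 to 0.293 over 15 GR pairs of cell types. The labels give a shared number only, and values this mixed cannot show whether same-numbered samples were processed together.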
